A study of Mus musculus with 3 samples.

Results

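Expression of the integrins, the laminins and their basement membrane partners was read on arrays of C3H10T1/2, a mesenchymal line of the mouse. The members were the 83 probe sets, of 45101 on the array, that were paired with exactly 1 gene symbol of the integrin α and β subunits, the laminin α, β and γ chains, the nidogens (Nid1 and Nid2), perlecan (Hspg2) or dystroglycan (Dag1). They stand for 38 of the 18193 genes named on the array. RNA came from 3 cultures of this line. These were untransfected C3H10T1/2 cells (C3H10T1/2), cells into which a retrovirus had brought the fluorescent protein Venus (Venus) and cells whose retrovirus brought Venus-Mkx (Venus-Mkx), Mkx being the gene of the homeobox transcription factor Mohawk. Each culture was hybridized to 1 Affymetrix mouse genome array, so no difference had a replicate check and no p-value is given. The labels give the same α-MEM with serum for all 3 cultures. By the study's methods the viral supernatants were brought onto the cells with puromycin, which is not stated for the untransfected cells, so that infection and this drug cannot be told apart in the difference between the controls. No source used here says that a culture was 1 clone.

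Integrins are cell surface receptors made of an α and a β subunit, and the pairing decides whether a receptor holds collagen, laminin, fibronectin or other ligands. Laminins are cross-shaped proteins of an α, a β and a γ chain that form the first sheet of a basement membrane. Nidogens and perlecan join that sheet to the type IV collagen network, and dystroglycan anchors laminins to the cell from outside the integrin family. In tendon, ligament and annulus fibrosus, integrins tie the cells to fibrillar collagen, and basement membrane proteins surround many of the cells.

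The values are deposited log2 probe set values. The floor, below which a value was not told from background, was the median of all values, 4.34. Where several probe sets read a gene, that with the highest mean stood for it, and the gene was called measured when this probe set reached the floor on at least 1 array. Of the 38 member genes, 24 were measured and 14 were not. Higher and lower are used of genes for which the array labelled Venus-Mkx lay at least 2-fold, which is 1 on the log2 scale, above both control arrays or below both. Both comparisons share the array labelled Venus-Mkx, and the difference between the controls shares arrays with each of them. Mkx itself (1437492_at) read 6.88, 7.43 and 2.71 on the arrays labelled C3H10T1/2, Venus and Venus-Mkx. By the study's methods the vector carried the coding sequence of Venus-Mkx. No source used here tells whether the probe set lies within that sequence. The low value would go against the label only if it did, so this probe set cannot check the label. The array is therefore called the array labelled Venus-Mkx. Markers of the mesenchymal identity of the line were read in all 3 cultures. All 10 mesenchymal markers, among them Col1a2, Vim, Prrx1 and Pdgfrb, were above the floor on all 3 arrays, whereas 6 of 8 endothelial markers, Pecam1 and Cdh5 among them, 6 of 8 epithelial markers, Krt18 and Cdh1 among them, and 8 of 12 leukocyte markers were below the floor on all 3. The endothelial exceptions were Erg, which read 6.30, 4.81 and 2.81, and Tek, which read 4.53, 4.02 and 5.95. The epithelial exceptions were Epcam, which read 6.74, 7.03 and 7.60, and Krt5, which read 4.53 on all 3 arrays. Of 5 skeletal muscle markers, 4 reached the floor on each control array and 2 on the array labelled Venus-Mkx. They and the leukocyte exceptions, of which Lyz2 and Csf1r were higher, are given below. The part of these markers in the values of the members was not tested. In such bulk RNA, fewer cells of a kind and less RNA per cell cannot be told apart.

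Of the 24 measured members, 4 were higher and 4 were lower on the array labelled Venus-Mkx than on both controls. The higher genes were Itga2b, Itga7, Itgb8 and Lama5. The lower genes were Itga1, Itgb3, Lama4 and Nid2. The share of higher genes was 16.7% of the measured members against 6.82% of the 11169 measured genes, and the share of lower genes was also 16.7%, against 5.34%. The median difference from Venus over the measured members was −0.12 on the log2 scale, against 0 over all measured genes. It was above 0 for 12 members and below 0 for 12. The members thus differed in both directions, with no shift of the family as a whole that held across settings. Over single probe sets, 45 of 83 reached the floor. Of these 45, 5 were higher and 6 were lower, both larger shares than the 5.75% and 5.45% of all measured probe sets. Some of these probe sets read the same gene.

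**Figure D1:**
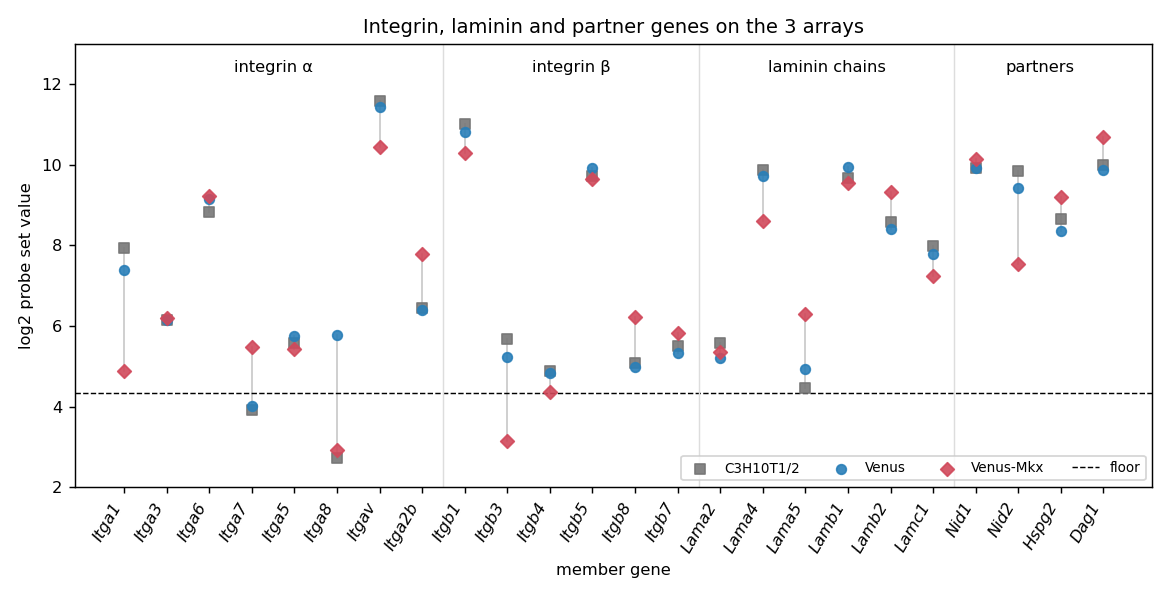
Log2 probe set value of the 24 measured member genes on the arrays labelled C3H10T1/2 (squares), Venus (circles) and Venus-Mkx (diamonds), 1 array per condition. The dashed line is the floor of 4.34. On the array labelled Venus-Mkx, Itga1 and Nid2 lie below both controls while still above the floor, Itgb3 lies below it, and Itga8 stands above the floor on the Venus array only.

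For the genes counted as higher or lower, the stretch around the start of transcription is shown where the RefSeq promoter table held an entry, because these are the members past the 2-fold limit. It did so for 4 of the 8, and for 25 of all 38 member genes. Each sequence runs 5′ to 3′ on the strand of the gene, from 250 bases before the start to 50 bases after it, in the assembly GRCm38.p6. Capitals mark matches on either strand to the GC box GGGCGG, to the Smad-binding element CAGAC and to TGACA, a core recognized by homeodomain proteins of the TALE class, to which Mkx belongs. The letters of the motifs do not overlap in these sequences. Itga1 lies at chr13:115101915-115102214 on the minus strand, Itga2b at chr11:102469834-102470133 on the minus strand, Itgb8 at chr12:119238227-119238526 on the minus strand and Lama5 at chr2:180225810-180226109 on the minus strand.
Itga1: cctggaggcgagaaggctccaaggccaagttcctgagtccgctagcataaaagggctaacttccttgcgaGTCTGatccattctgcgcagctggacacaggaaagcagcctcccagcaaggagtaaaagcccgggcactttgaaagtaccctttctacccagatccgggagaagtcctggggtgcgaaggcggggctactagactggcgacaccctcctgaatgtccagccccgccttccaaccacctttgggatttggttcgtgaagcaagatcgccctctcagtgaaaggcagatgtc
Itga2b: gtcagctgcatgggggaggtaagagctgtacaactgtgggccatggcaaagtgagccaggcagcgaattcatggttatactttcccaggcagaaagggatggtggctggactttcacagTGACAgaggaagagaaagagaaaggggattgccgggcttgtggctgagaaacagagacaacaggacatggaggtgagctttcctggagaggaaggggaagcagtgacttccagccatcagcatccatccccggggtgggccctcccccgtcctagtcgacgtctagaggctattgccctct
Itgb8: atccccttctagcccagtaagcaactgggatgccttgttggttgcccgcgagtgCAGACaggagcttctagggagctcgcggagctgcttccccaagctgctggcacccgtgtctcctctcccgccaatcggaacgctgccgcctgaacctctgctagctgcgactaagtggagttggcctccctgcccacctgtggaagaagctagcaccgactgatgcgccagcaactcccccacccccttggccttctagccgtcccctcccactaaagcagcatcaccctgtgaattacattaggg
Lama5: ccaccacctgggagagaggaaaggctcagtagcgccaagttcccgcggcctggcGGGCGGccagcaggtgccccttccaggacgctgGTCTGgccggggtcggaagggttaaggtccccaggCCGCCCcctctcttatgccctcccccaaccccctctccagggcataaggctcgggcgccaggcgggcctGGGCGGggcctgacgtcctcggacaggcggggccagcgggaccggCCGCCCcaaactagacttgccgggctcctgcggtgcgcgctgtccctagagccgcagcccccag
The promoter of Itga1, the lower gene of the set, held 1 match to CAGAC and none to the other motifs. The promoter of Lama5 held 4 GC boxes and 1 match to CAGAC, that of Itgb8 1 match to CAGAC, and that of Itga2b 1 match to TGACA. Over all 32851 promoters of the table, 35.7% held a GC box, 49.6% CAGAC and 45.4% TGACA, so each motif is common in windows of this length. The Lama5 window held 24 CG dinucleotides, against a median of 7 over all promoters, and the windows of Itga1, Itgb8 and Itga2b held 12, 13 and 6. A match describes the letters only.

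Among the integrin α subunits that bind collagen, Itga1 was lower and the other 2 read here, Itga2 and Itga10, were below the floor on all 3 arrays. Itga1 encodes the α1 subunit, which pairs with β1 as a receptor for collagens and laminins. Its probe set 1455251_at read 7.93 in C3H10T1/2 and 7.39 in Venus, against 4.87 on the array labelled Venus-Mkx. The 2 control arrays differed by −0.54, Venus being below C3H10T1/2, and the array labelled Venus-Mkx lay below both by more than that, with log2 differences of −2.52 from Venus and −3.06 from C3H10T1/2. Only 1.28% of measured genes had as low a difference from Venus. A second probe set of Itga1, 1439713_at, read 5.16, 4.57 and 3.78 in the same order and differed by −0.79 and −1.37. It pointed the same way with a smaller difference from Venus, and its value on the array labelled Venus-Mkx was below the floor. Itga11, whose product is the other collagen receptor subunit of mesenchymal cells, was not analysed here.

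The subunits of the laminin receptors did not move alike. Itga7 encodes the α7 subunit, the laminin receptor of muscle. It read 3.91 in C3H10T1/2 and 4.01 in Venus, against 5.47 on the array labelled Venus-Mkx (1418393_a_at). Only the array labelled Venus-Mkx was above the floor, with log2 differences of 1.45 and 1.56. With the control values raised to the floor the difference from each was still 1.13. Myog and Acta1, which mark skeletal muscle, were lower, with differences of −2.39 and −1.99 from Venus. Since the array labelled Venus-Mkx had Myog below the floor, its difference was −1.81 with that value raised to it. Des read 4.87 on all 3 arrays. Myod1 read 4.65 in Venus and 4.18 on the array labelled Venus-Mkx, the latter below the floor, and Myf5 was below the floor throughout. Of the 5 muscle markers, 2 were lower and none was higher, and the log2 of their summed level was 7.68 in C3H10T1/2 and 8.15 in Venus, against 6.69 on the array labelled Venus-Mkx. Itga3 and Itga6 encode α3 and α6, which bind laminins in many cell types. The probe set used for Itga6, 1422445_at, read 8.83, 9.16 and 9.22, and its difference from Venus was 0.06. Itga3 (1455158_at) read 6.16, 6.16 and 6.21 and differed by 0.05 from each control. These 2 subunits stayed within 2-fold of both controls. Itgb4, which encodes the β4 subunit that pairs with α6 in epithelial hemidesmosomes, read 4.87, 4.83 and 4.36, and its value on the array labelled Venus-Mkx lay just above the floor.

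The subunits that recognize the RGD sequence of fibronectin, vitronectin and the latent TGFβ peptide differed in both directions. Itgb3 encodes β3, which pairs with αv as a vitronectin receptor. It read 5.67 in C3H10T1/2 and 5.23 in Venus, against 3.16 on the array labelled Venus-Mkx (1455257_at), with log2 differences of −2.08 and −2.52. Both control arrays were above the floor and the array labelled Venus-Mkx was below it. With that value raised to the floor the difference from Venus was −0.89, so a 2-fold difference from Venus is not shown. A second probe set of Itgb3, 1421511_at, read 3.76 on all 3 arrays.

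Itgav encodes αv, the partner of β3, β5, β6 and β8 and also of β1. It had the highest deposited value of the αv probe sets in 1452784_at, which read 11.59, 11.43 and 10.44. The differences of −0.99 from Venus and −1.15 from C3H10T1/2 lay at the edge of the 2-fold limit. The probe set 1421198_at read 6.29, 5.82 and 4.42, with differences of −1.41 and −1.87, so that it passed the limit while the probe set that represents the gene just missed it. With the arrays centred on their medians Itgav was counted as lower.

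Itgb8 moved the other way. It encodes β8, which pairs with αv and is known for the activation of latent TGFβ. It read 5.09 in C3H10T1/2 and 4.99 in Venus, against 6.22 on the array labelled Venus-Mkx (1436223_at), all above the floor, 1.22 above Venus and 1.13 above C3H10T1/2 on the log2 scale. Itgb5, which encodes the β5 subunit of another vitronectin receptor, read 9.73, 9.93 and 9.64 and differed by −0.29 and −0.09. Itgb6 was below the floor on all 3 arrays. Thus of the genes of the αv partners, Itgb3 and Itgb8 lay on opposite sides of both controls and Itgb5 was within 2-fold.

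Itgb1 encodes β1, the most widely shared subunit. Its probe set 1426918_at read 11.00, 10.81 and 10.28, with differences of −0.53 and −0.72. All 3 of its probe sets above the floor lay below both controls, by −0.23 to −0.53 from Venus, less than 2-fold. Itga5, the gene of the fibronectin receptor subunit α5, read 5.57, 5.76 and 5.44 and differed by −0.32 and −0.14 (1423267_s_at). The other 2 probe sets of Itga5 above the floor held equal values in Venus and on the array labelled Venus-Mkx.

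Itga2b encodes αIIb, the platelet fibrinogen receptor subunit. It read 6.44 in C3H10T1/2 and 6.39 in Venus, against 7.78 on the array labelled Venus-Mkx (1417758_at), with log2 differences of 1.39 and 1.34. The 2 controls differed by 0.05 in size, far less than their distance to the array labelled Venus-Mkx. Its β partner Itgb3 was counted as lower, but as given above it was within 2-fold of Venus with its low value raised to the floor. Of 5 platelet markers on the array, Gp6, Gp9, Pf4 and Ppbp were below the floor on all 3 arrays, and Gp1bb read 6.38, 6.76 and 5.87. The log2 of their summed level was 7.02 in C3H10T1/2 and 7.28 in Venus, against 6.72 on the array labelled Venus-Mkx.

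Integrin genes of leukocytes were almost all below the floor. Itgal, Itgam, Itgax and Itgae, which encode α subunits of leukocytes, Itgb2, which encodes their common β2 subunit, and Itga4 and Itga9 were below the floor on all 3 arrays. Itgb2 reached 4.08 on the array labelled Venus-Mkx, the highest value among the 14 members that were not measured. Itgb7, which encodes β7 of lymphocytes, was measured. It read 5.50, 5.32 and 5.83 and lay 0.51 above Venus and 0.33 above C3H10T1/2 on the log2 scale, less than 2-fold. Of 12 leukocyte markers on the array, 8 were below the floor on all 3 arrays, Ptprc and Cd68 among them. Lyz2, the lysozyme gene of macrophages, read 4.39, 5.14 and 7.30, and Csf1r, the receptor gene of macrophage colony-stimulating factor, read 4.45, 5.39 and 6.62. The other measured markers, Cd14 and Laptm5, stayed within 2-fold of both controls. Cd14 read 6.62, 6.99 and 6.49, and Laptm5 read 4.99, 4.52 and 4.70. The log2 of the summed level of the leukocyte markers was 7.93, 8.23 and 8.80 on the arrays labelled C3H10T1/2, Venus and Venus-Mkx. The part of these markers in the values of the integrins was not tested.

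Itga8 differed between the 2 control arrays. It encodes α8, a receptor subunit for nephronectin and fibronectin found on mesenchymal and smooth muscle cells. It read 2.73 in C3H10T1/2 and 5.77 in Venus, against 2.91 on the array labelled Venus-Mkx (1454966_at), and so it was above the floor in Venus only. The log2 difference of Venus from C3H10T1/2 was 3.04, and it was at least 1.43 with the value below the floor raised to it. The second probe set of Itga8, 1427489_at, read 2.16 on all 3 arrays. Itga8 was the single member at least 2-fold higher in Venus than in C3H10T1/2, where 1.49% of measured genes were higher, and no member was at least 2-fold lower, as 0.555% were. The other measured members differed between the controls by −0.54 to 0.46. Npnt, the gene of its ligand nephronectin, read 6.84, 8.68 and 5.31 on the C3H10T1/2 array, the Venus array and that labelled Venus-Mkx, highest in Venus as well.

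**Figure D2:**
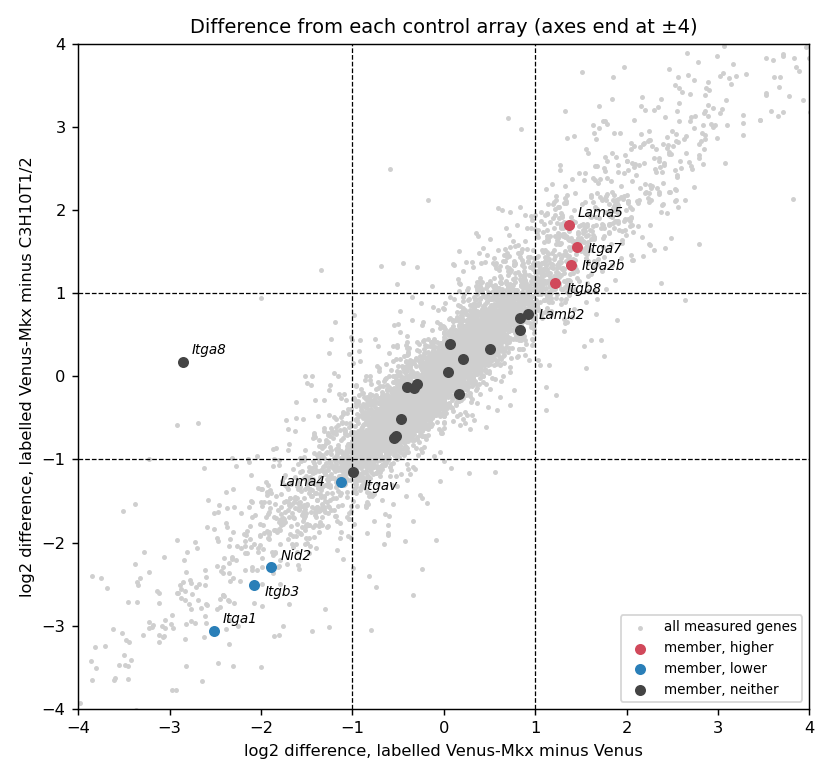
Log2 difference of the array labelled Venus-Mkx from Venus (horizontal) and from C3H10T1/2 (vertical) for all measured genes (grey) and the 24 measured members (coloured), 1 array per condition, with dashed lines at 2-fold. The 4 higher members lie in the upper right corner, the 4 lower members in the lower left, and Itga8 is far from the diagonal. The axes leave out 169 of 11169 genes, none of them a member.

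The laminin α chains diverged. Lama4 encodes α4, the chain of mesenchymal and endothelial basement membranes. Its probe set 1424807_at read 9.88 in C3H10T1/2 and 9.74 in Venus, against 8.61 on the array labelled Venus-Mkx. The differences were −1.13 from Venus and −1.27 from C3H10T1/2. A second probe set, 1424808_at, read 4.64, 4.53 and 3.48 and differed by −1.05 and −1.16. Its value on the array labelled Venus-Mkx was below the floor, and with that value raised to it the differences were −0.19 and −0.30, so this probe set shows no 2-fold difference. Lama5 encodes α5, a chain found in most mature basement membranes. It read 4.47 in C3H10T1/2 and 4.93 in Venus, against 6.30 on the array labelled Venus-Mkx (1427009_at), above the floor on all 3 arrays, with differences of 1.37 and 1.83. A second probe set, 1427010_s_at, read 4.09, 4.18 and 5.73 and differed by 1.55 and 1.64, from control values below the floor. Lama2, which encodes α2 of muscle and nerve, read 5.57, 5.20 and 5.36 and was between the controls on the array labelled Venus-Mkx. Lama1 and Lama3 were below the floor on all 3 arrays. Lama4 and Lama5 therefore lay on opposite sides of both controls in the probe sets that represent them, in which all values were above the floor.

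The β and γ chains stayed within 2-fold of both controls. Lamb2, which encodes β2, read 8.57, 8.41 and 9.33 and was above both, by 0.92 and 0.76. Lamb1, which encodes β1, read 9.67, 9.95 and 9.55 and was below both, by −0.40 from Venus and −0.12 from C3H10T1/2 (1424114_s_at). Its probe set 1451241_at lay above C3H10T1/2, by 0.23. Lamc1, which encodes γ1, the chain shared by most laminins, read 7.995, 7.80 and 7.25 and differed by −0.55 and −0.74. Lamb3 and Lamc3 were below the floor.

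Of the partners that join laminin to the rest of the membrane, Nid2 was lower and Nid1 was not. Nid2 encodes nidogen-2. Its single probe set, 1423516_a_at, read 9.84 in C3H10T1/2 and 9.43 in Venus, against 7.54 on the array labelled Venus-Mkx, with log2 differences of −1.89 and −2.30, and both control values lay far above the third. Nid1, which encodes nidogen-1, read 9.93, 9.93 and 10.15 and differed by 0.21 from each control. Its probe set 1448469_at read 6.45 on all 3 arrays. Hspg2, the perlecan gene, read 8.65, 8.36 and 9.20 and differed by 0.84 and 0.55 (1418670_s_at). Its probe set 1418669_at was above Venus by 0.49 and level with C3H10T1/2. Dag1, which encodes both dystroglycan chains, read 9.99, 9.86 and 10.69 and differed by 0.83 and 0.71 (1426778_at). All 4 probe sets of Dag1 lay above both controls, by 0.72 to 1.04 from Venus and by 0.59 to 0.75 from C3H10T1/2, less than 2-fold from the latter.

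**Figure D3:**
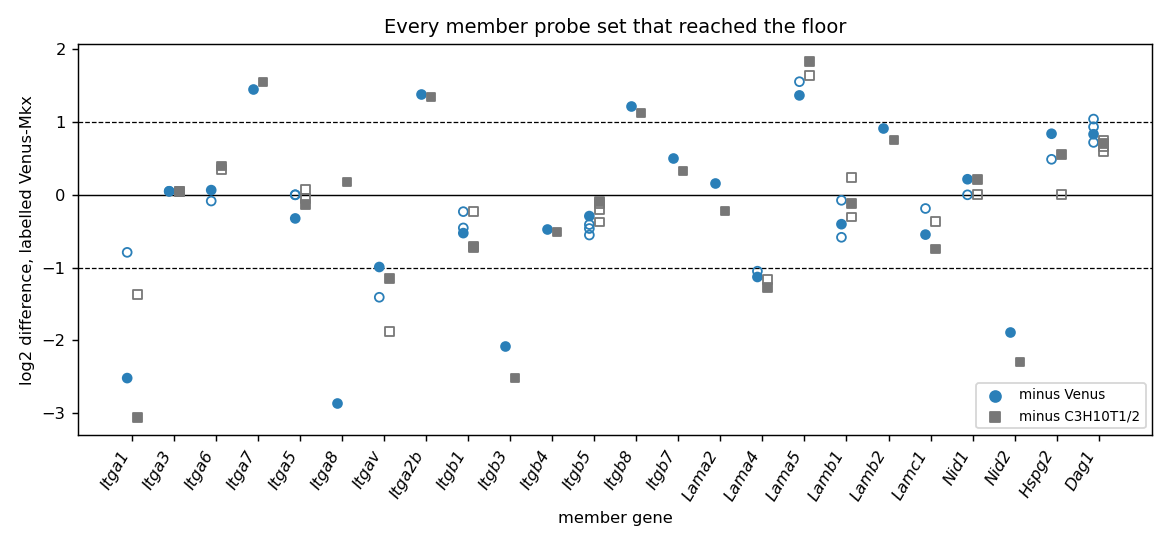
Log2 difference of the array labelled Venus-Mkx from Venus (circles) and from C3H10T1/2 (squares) for the 45 member probe sets that reached the floor, 1 array per condition. Values below the floor are drawn as deposited. Filled symbols are the probe sets that represent the gene, and dashed lines mark 2-fold. The probe sets of Itga1, Itgav, Lama4, Lama5 and Dag1 lie on 1 side of 0.

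Probe sets of a gene mostly lay on the same side. Of 14 measured members with several probe sets above the floor, 11 had all of them on 1 side of Venus, and Itga5, Itga6 and Nid1 were the exceptions. Of the 83 member probe sets, 20 held an equal value on all 3 arrays and 19 of these were below the floor, the other being 1448469_at of Nid1.

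Since a receptor or a laminin needs all its chains, the chains above the floor were also read together. Of 23 known integrin pairs, 22 had probe sets for both subunits. Both were at or above the floor for 10 pairs in C3H10T1/2, for 11 in Venus and for 9 on the array labelled Venus-Mkx. Pairs of Itgb1 with Itga1, Itga3, Itga5, Itga6 and Itgav, pairs of Itgav with Itgb5 and Itgb8, and the pair of Itga6 with Itgb4 were read on all 3 arrays. On the array labelled Venus-Mkx, Itgb4 lay just above the floor. The pairs of Itgb3 with Itgav and with Itga2b were read in both controls and not on the array labelled Venus-Mkx, the pair of Itga7 with Itgb1 on that array only, and the pair of Itga8 with Itgb1 in Venus only. Of 14 known laminin trimers, 13 had probe sets for all chains, and the same 6 had every chain at or above the floor on each array. These combine Lama2, Lama4 or Lama5 with Lamb1 or Lamb2 and with Lamc1. This describes RNA above a floor and says nothing of the proteins.

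Genes that act with the members were counted in lists. Other basement membrane matrix genes moved in both directions. Of 17 measured genes, 6 were higher, 5 were lower and 6 were neither, and their median difference from Venus was 0.55. The shares were thus 35.3% higher and 29.4% lower, against 6.82% and 5.34% of all measured genes. Col4a1 and Col4a2, which encode the main chains of type IV collagen, were lower with differences of −2.68 and −1.86 from Venus and of −2.50 and −1.69 from C3H10T1/2. Col4a1 read 11.03 in C3H10T1/2 and 11.21 in Venus, against 8.53 on the array labelled Venus-Mkx. Fbln2, which encodes fibulin-2, a partner of nidogens, read 11.15, 10.82 and 7.99, and Smoc2, which encodes a matrix protein of the SPARC family, read 7.22, 8.77 and 3.46, the last below the floor. At the other end, Agrn encodes agrin, a ligand of dystroglycan. It read 7.82, 7.56 and 10.04, with differences of 2.48 and 2.22. Tinagl1, the gene of a basement membrane glycoprotein, differed by 2.54 and 2.83. Col7a1, the gene of the anchoring fibril collagen, differed by 1.61 and 1.91. Fbln1, the gene of fibulin-1, differed by 3.83 from each control, from values below the floor, and by 3.31 with these raised to it.

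Genes of the cytoplasmic side of the integrins were more often below Venus than above it. Of 36 measured adaptors and signalling genes, 25 were below and 8 above, that is 69.4% below against 45.8% of all measured genes, and their median difference was −0.50, against 0 over all measured genes. At 2-fold from both controls 5 were lower, 2 were higher and 29 were neither. The 5.56% that were higher were near the 6.82% of all measured genes, and 13.9% were lower, against 5.34%. Vcl, which encodes vinculin, read 11.80 in C3H10T1/2 and 11.93 in Venus, against 10.29 on the array labelled Venus-Mkx. Rsu1, which encodes a member of the complex around integrin-linked kinase, differed by −1.35 and −1.37, Parvb, the gene of β-parvin of the same complex, by −1.49 and −1.27, and Tns1, the gene of tensin-1, by −1.48 and −1.24. Ptk2b, which encodes a kinase related to focal adhesion kinase, was higher by 1.46 and 1.59, and by 1.29 with the control values, both below the floor, raised to it. Kank4 differed by 2.06 and 2.35 from values below the floor, and by 0.77 with these raised to it, so a 2-fold difference is not shown.

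Genes of integrin ligands other than laminins were also divided. Of 20 measured, 5 were higher, 6 were lower and 9 were neither, with a median of 0.26. These were 25.0% and 30.0%, against 6.82% and 5.34% of all measured genes. Postn, Col3a1, Ccn2 and Npnt were lower, with differences from Venus of −7.58, −3.86, −2.79 and −3.37. Tgfbi, Edil3, Col1a1 and Tgfb1 were higher, with 3.20, 1.69, 1.34 and 1.14. From C3H10T1/2 the differences were −7.11, −3.42, −2.74 and −1.53 for the lower genes in that order. For the higher genes they were 5.23, 2.99, 1.69 and 1.65. That of Tgfb1 was 1.37 with the C3H10T1/2 value, below the floor, raised to it. Venus itself lay above C3H10T1/2 by 2.03 for Tgfbi, 1.84 for Npnt and 1.29 for Edil3. On the dystroglycan side, 1 of 10 measured genes of the complex was higher and 2 were lower, with a median of −0.21, in a list too short to set against the 6.82% and 5.34% of all measured genes. Sgce, the gene of ε-sarcoglycan, differed by −1.13 and −1.20, and Sntb2, the gene of β2-syntrophin, by −1.09 and −1.06. Dmd, the dystrophin gene, differed by 1.75 and 1.82, but by 0.94 with the control values raised to the floor, so a 2-fold difference is not shown. None of 11 measured genes that glycosylate dystroglycan was 2-fold apart from both controls, and their median was 0.06. Of 5 measured genes of other laminin receptors, 1, the syndecan gene Sdc3, was higher, with 1.52 and 1.72, and 4 were neither. Of 7 measured genes of integrin-associated membrane proteins, Bsg, which encodes basigin, was higher, with 1.35 and 1.08, and 6 were neither. The lists of glycosylation, laminin receptor and membrane protein genes are also too short to set against the 6.82% and 5.34%.

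**Figure D4:**
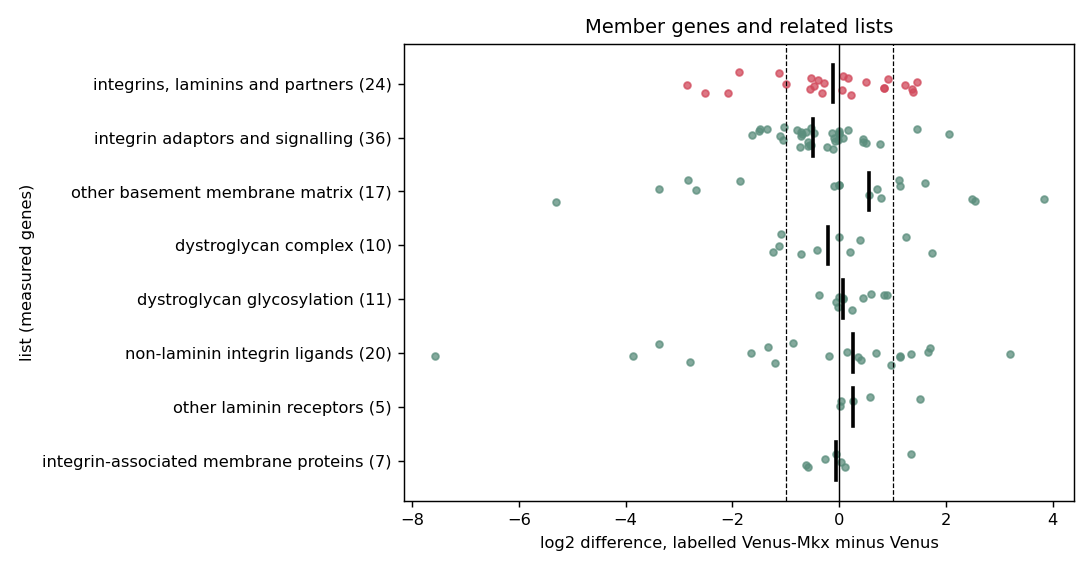
Log2 difference of the array labelled Venus-Mkx from Venus for the measured members (red) and for 7 lists of related genes (green), 1 array per condition. Points are single genes, black bars are medians, the number of genes is in parentheses and dashed lines mark 2-fold. The medians run from −0.50 for the adaptors to 0.55 for other basement membrane matrix genes.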

How the data were processed

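Total RNA of 3 cultures was reverse-transcribed and biotinylated with a 3′ IVT kit and hybridized to Affymetrix mouse genome arrays, 1 per condition. The authors deposited log2 probe set values. The submitters' processing notes name RMA (version: not given in the sources used here), whereas the paper's methods name MAS 5.0. The values run from 1.44 to 14.00, with medians of 4.34, 4.34 and 4.39 on the arrays labelled C3H10T1/2, Venus and Venus-Mkx, and the 3 arrays held the same value for 24.6% of probe sets. Since MAS 5.0 signals are linear, they were treated as normalized log2 values and not normalized again. Such processing draws low values together, so differences near the floor are compressed.

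Of 45101 probe sets, 64 controls were left out, 34945 had 1 symbol in the platform's name table, 932 several and 9160 none, and symbols were updated through gene IDs to GRCm38.p6, which served for names only. Promoters came from RefSeq. Log2 differences were counted at 2-fold, and no test was possible. The members, lists and rules were chosen with earlier results of these data known. Every member was open to being named, with Mkx and up to 4 genes per direction of each list, those furthest from the nearer control. Marker genes were named beside the members they bear on. Alternatives covered the floor, the probe sets per gene, the scale, the control and the fold. Raising values below the floor to it was added after the data were seen. The counting rule was run on simulated data with known changes, in which gene means lay at or above the floor. That run does not bear on calls that rest on values below the floor. The number of arrays limits the precision. Python 3.11.15, NumPy 2.4.6, pandas 2.3.3 and matplotlib 3.10.9 were used.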

Additional observations from a re-analysis of the deposited data

How the results depend on the processing

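The 8 genes counted as higher or lower kept their sign under every alternative run. Of their 72 values, 64 moved by less than 0.34, the SD of the differences between the controls. Many of these could not move. A change of floor alters only which genes count as measured, and no probe set marked _x_at or _s_at represents these 8 genes. A mean cannot move a gene with a single probe set, nor can raising to the floor move values above it. The 64 are therefore not a count of separate checks. The count of higher members, 4, was 1 with the floor at the 75th percentile, when Itga7, Itgb8 and Lama5 were no longer measured, and 0 at 3-fold, when Itga1, Itgb3 and Nid2 were still lower. Over the mean of all probe sets Lama5 was not counted, and with values below the floor raised to it Itgb3 was not. The count of lower members ran from 3 to 6, and Itgav joined it on centred arrays, at 1.5-fold, against C3H10T1/2 alone and against the mean of the 2 controls. Itga8 joined it against Venus alone and against the mean of the 2 controls, where the count was 6. Against C3H10T1/2 the array labelled Venus-Mkx was 0.18 higher for Itga8, so this call depends on the control. Itga8, the member 2-fold apart between the controls, was not counted with the floor at the 75th percentile or over the mean of all probe sets, and the count was then 0. The median of the members, −0.12, was 0.024 without probe sets marked _x_at and _s_at, 0 with no floor, −0.010 over the mean of all probe sets, −0.022 against C3H10T1/2 alone and −0.35 with the floor at the 75th percentile, so no direction is given for it. The median of the adaptors, −0.50, was −0.36 with no floor and −0.30 over the mean of all probe sets. That of other basement membrane matrix genes, 0.55, was 0 with no floor. Of the genes on the lists, 33 were 2-fold and 15 were 3-fold from both controls. With the floor at the 75th percentile 3 integrin pairs and 2 laminin trimers had every chain above it on the array labelled Venus-Mkx. The 9 integrin pairs of that array were 8 on centred arrays, with quantile normalization and over the mean of all probe sets. Complexes have no count with no floor. No paired analysis was possible because each condition has 1 array. For the same reason no array could be left out other than a control.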
